A study of Mus musculus with 2 samples.

Results

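The Ly49 receptors are a family of C-type lectin-like receptors that mouse natural killer (NK) cells use to read MHC class I on other cells. Here the family is represented by 7 genes, Klra1, Klra3, Klra4, Klra6, Klra7, Klra8 and Klra9, out of 27998 genes listed in the count matrices. All 7 were found by symbol in both libraries, and their identifiers matched the GRCm38 annotation. The data were 10x Genomics 3′ single-cell libraries of immune cells that had infiltrated tumours of MC38, a colon carcinoma line of mice. The mice were C57BL/6J, which express the H-2b form of class I. MC38 cells were placed in the skin at 4 sites per mouse and grew for 7 days. Tumours then received either anti-PD-1 antibody, 200 µg daily for each mouse (aPD1), or a control (Control), and viable CD45+ cells were sorted on day 10. There was 1 library per group, how many mice each one holds is not stated in the labels, and no test across samples can be made.

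In mice, each NK cell switches on a few Ly49 genes out of the cluster, largely independently of the others, so that a population holds many combinations. Most members are inhibitory: their cytoplasmic tail recruits phosphatases such as SHP-1 when the receptor meets class I, and they raise the threshold for killing. Ly49D and Ly49H have no such tail and signal through the adapters DAP12 (Tyrobp) and DAP10 (Hcst), Ly49H being known for its recognition of a cytomegalovirus protein. The genes correspond to Ly49D (Klra4) and Ly49H (Klra8), counted here as the 2 activating members, and to Ly49G2 (Klra7), Ly49I (Klra9), Ly49A (Klra1), Ly49C (Klra3) and Ly49F (Klra6), the 5 inhibitory members. Some T cells of mice, mainly memory-type and innate-like ones, are also known to carry inhibitory Ly49 receptors.

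The 7 genes lie on 1 strand of mouse chromosome 6, within 374 kb (GRCm38, chr6:130013033-130386874, minus strand). Klra6 is at 130013033-130026954, Klra4 at 130043731-130067271, Klra8 at 130115226-130129898, Klra9 at 130178675-130193112, Klra7 at 130218605-130233322, Klra3 at 130323289-130337574 and Klra1 at 130363917-130386874. The windows around their annotated starts, taken from RefSeq (GRCm38.p6), hold a closely related run of bases upstream of each member except Klra1. These runs are shown because Klra7 and Klra6, found in a group of T cells described below, and Klra4 and Klra8, not found there, differ in them. Capitals mark a core word of the TCF/LEF factors (CTTTGAA or CTTTGAT or CTTTGTA or CTTTGTT, searched on either strand), the family that includes TCF-1, encoded by Tcf7, a known regulator of Ly49 genes. The runs are given 5′ to 3′ in the direction of transcription.
Klra7, chr6:130233374-130233416: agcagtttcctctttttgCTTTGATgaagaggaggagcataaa
Klra6, chr6:130027036-130027078: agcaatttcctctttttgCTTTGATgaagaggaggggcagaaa
Klra9, chr6:130193113-130193155: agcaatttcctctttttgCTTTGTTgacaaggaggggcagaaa
Klra4, chr6:130067313-130067355: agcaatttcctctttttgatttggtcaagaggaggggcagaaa
Klra8, chr6:130129941-130129983: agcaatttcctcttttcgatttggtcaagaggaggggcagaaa
Klra3, chr6:130337627-130337650: agcaatttcctctttttgctttgg
The run of Klra3 stops at its annotated start and is shorter. The core word was present in the runs of Klra7, Klra6 and Klra9 and absent from those of Klra4, Klra8 and Klra3. No match lay in the window of Klra1, a member also found in those T cells. The word was also absent from the like run of Klra5, a Ly49 gene outside the members. Klra3 and Klra5 were found in those T cells as well, at levels given below. The word thus lay in some genes found in those T cells and not in others. Another annotated start of Klra7 had no such run in its window. The same words occurred in 16.9% of 32851 promoter windows as long as those searched here, so a match in a window is common. The windows are longer than the runs shown, so this is not the rate for a run. The word was chosen with the levels known, and a match is given as a description of the letters only.

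The aPD1 library held 13717817 UMIs (unique molecular identifiers, each standing for 1 captured transcript) and the Control library 5203415. Barcodes with at least 1000 UMIs and at most 10% mitochondrial UMIs were kept as cells, 3321 in aPD1 and 1174 in Control, with medians of 2763 and 3287 UMIs. The libraries shared 4 cell barcodes, against 5.29 for 2 random draws of that size. Levels are UMIs summed over the cells of a class, per 1000000 UMIs of that class (CPM), with exact Poisson intervals. The 3′ counts are per transcript end and do not scale with transcript length. Shares of cells with a UMI are given after each cell was thinned to 1000 UMIs, with exact binomial intervals. All intervals are at 95% and cover counting error only, neither the spread between animals nor that between cells, and ratios are aPD1 over Control on the log2 scale unless another pair is named.

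NK-like cells carried most of the family's transcripts. They were the cells of clusters marked by Ncr1, Klrb1c and Klre1, obtained without Klra genes or the granzymes Gzmc to Gzmg, and numbered 652 in aPD1 and 364 in Control. At least 1 UMI of those 3 markers was found in 96.8% of them in aPD1 and 95.9% in Control. As these genes mark the clusters, the shares are a description and no test of identity. NK-like cells held 89.1% of the member UMIs of all cells in aPD1 and 91.2% in Control. The family summed to 2550 CPM in aPD1 NK-like cells and 2388 CPM in Control NK-like cells. Monocyte/macrophage-like cells, which should lack these receptors, gave 27.3 and 10.2 CPM, with a UMI in 1.92% (0.63 to 4.41) of thinned aPD1 cells and 0.74% (0.09 to 2.66) of Control cells, at unthinned medians of 4451 and 4841 UMIs. That is the background against which T cells are read below.

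The sequences of the family's 3′ ends are partly shared, which can move UMIs between members or to genes outside the list. Of 60-base words from the last 400 bases of the annotated transcripts, 0% were shared with another gene for Klra4 and Klra1, 0.293% for Klra6 and 8.21% for Klra8. The share was 21.1% for Klra7, with the pseudogene Klra13-ps, 24.8% for Klra3 and 30.5% for Klra9. Klra3 and Klra9 shared words with each other and with Klra8, Klra10 and Klra11-ps, so their levels are uncertain, and the part of this sharing in them was not tested.

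NK-like cells were split by the granzymes Gzmc to Gzmg, cytotoxic granule proteases that are highly expressed in strongly activated killer cells. Cells with 0 UMIs of these 5 genes numbered 402 in aPD1 and 258 in Control, cells with at least 2 UMIs 197 and 74, and cells with exactly 1 UMI 53 and 32, which were left out of both groups. In the cells without these granzymes, Klra4 reached 1137 CPM (1070 to 1207) in aPD1 and 892 CPM (824 to 964) in Control. Klra8, the other activating member, reached 779 CPM in aPD1 and 668 CPM in Control. Klra7 reached 784 and 636 CPM, Klra9 416 and 340 CPM, Klra1 197 and 134 CPM, Klra3 166 and 150 CPM, and Klra6 38.5 and 24.1 CPM, aPD1 first in each pair.

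After thinning, 82.3% (78.2 to 85.9) of these NK-like cells in aPD1 and 82.2% (76.9 to 86.6) in Control held a UMI of at least 1 member. Klra4 was found in 41.5% of aPD1 cells and 40.3% of Control cells, Klra7 in 38.6% and 38.4%, and Klra8 in 36.3% and 31.4%. Klra9 was found in 27.1% and 21.3%. Klra1 was found in 12.9% and 7.36%, Klra3 in 12.9% and 12.02%, and Klra6 in 2.99% and 1.94%. The share with any member did not separate the libraries, and the intervals of the libraries overlapped for each of the 7 members.

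**Figure D1:**
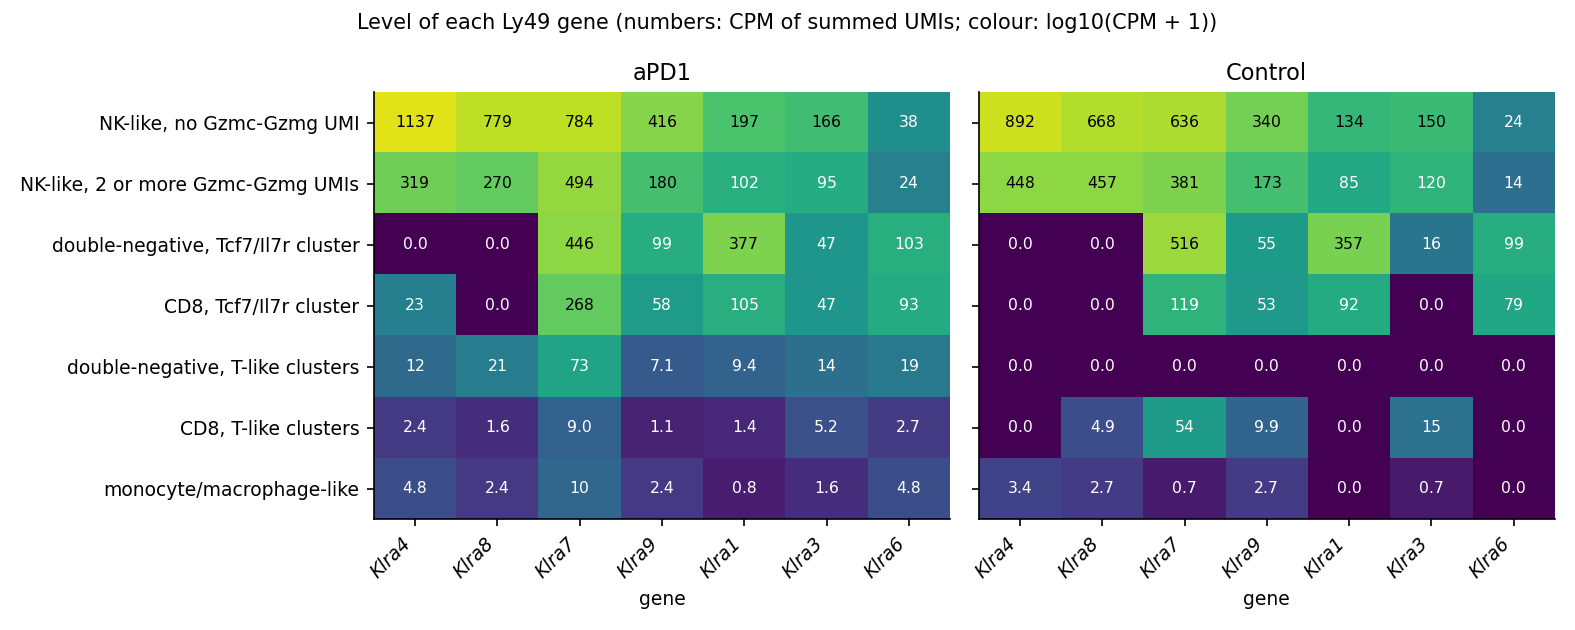
Level of each Ly49 gene (columns) in each cell class (rows), in CPM of summed UMIs, with aPD1 left and Control right; colour gives log10(CPM + 1). Klra4 and Klra8 are among the highest members in NK-like cells and are at 0 in double-negative cells of the Tcf7 and Il7r-led cluster, where Klra7 and Klra1 are at 357 CPM or more.

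**Figure D2:**
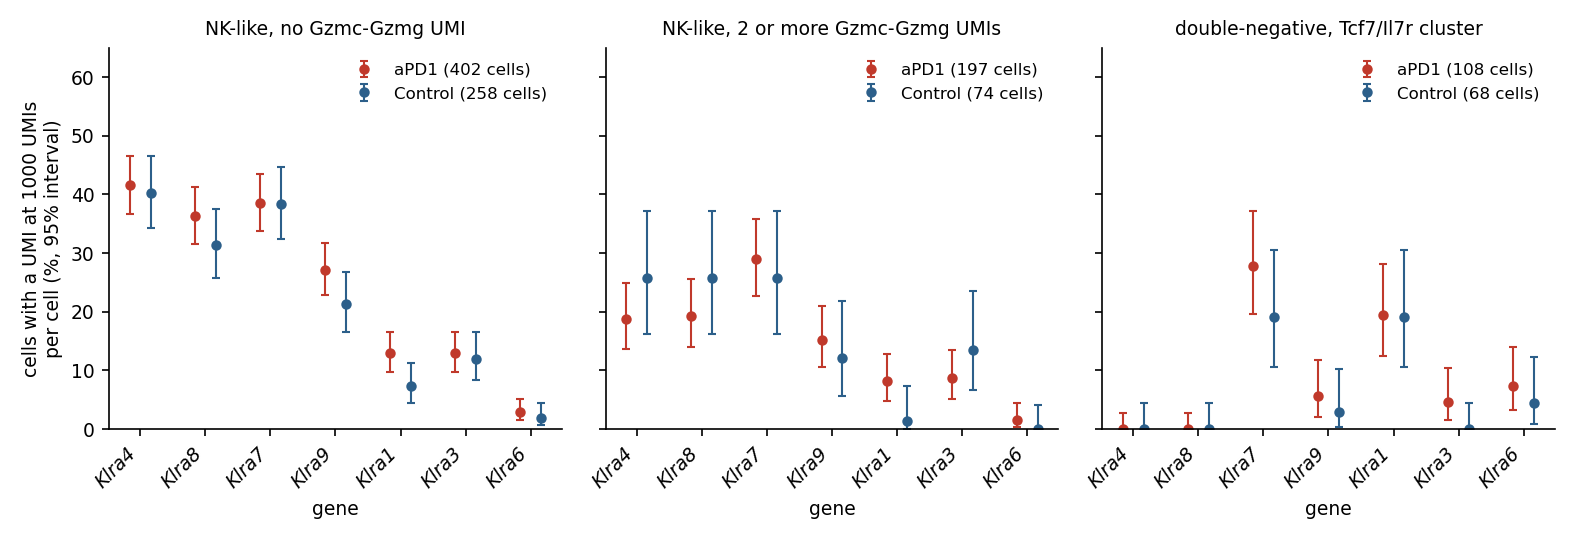
Share of cells with at least 1 UMI of each Ly49 gene (y axis, %) after thinning to 1000 UMIs, with exact 95% binomial intervals (for a count of 0, the limit that 3 cells give), in 3 cell classes, aPD1 red and Control blue. The intervals of the libraries overlap for each gene in each class.

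In NK-like cells without Gzmc to Gzmg, all 7 members had a higher level in aPD1 than in Control, by less than 2-fold. The summed family was at 3516 CPM in aPD1 and 2844 CPM in Control, a log2 ratio of 0.31 (0.23 to 0.39). The ratio was 0.35 (0.21 to 0.49) for Klra4, 0.22 (0.05 to 0.39) for Klra8, 0.30 (0.13 to 0.48) for Klra7, 0.29 (0.05 to 0.53) for Klra9 and 0.55 (0.18 to 0.92) for Klra1. For Klra3 and Klra6 the intervals included 0, at 0.14 (-0.22 to 0.51) and 0.68 (-0.19 to 1.60). Activating and inhibitory members moved alike, at 0.30 and 0.32. No member passed 2-fold, against 3.83% of 5791 genes tested that were at least 2-fold higher and 2.12% that were at least 2-fold lower, and the median of all those genes was 0.10. The same direction held for all 7 members under 9 of 9 alternatives in the processing, although the lowest ratios were 0.006 for Klra3 and 0.008 for Klra6. The depth ranges given next were not among these alternatives.

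Depth moved with this difference. In cells with 1000 to 2000 UMIs the family was at 4161 CPM in aPD1 (213 cells) and 2591 CPM in Control (95 cells). In cells with 3000 to 5000 UMIs it was at 2694 CPM in aPD1 (48 cells) and 3215 CPM in Control (66 cells). Thus the shallow cells had the higher level in aPD1, and the deeper cells had the higher level in Control. Medians over the whole class were 1940.5 UMIs in aPD1 and 2307 in Control. The part of depth in the difference was not tested.

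NK-like cells with Gzmc to Gzmg had less of the family than NK-like cells without, in both libraries. The summed level was 1485 CPM with these granzymes and 3516 CPM without in aPD1, a log2 ratio of -1.24 (-1.33 to -1.15). In Control it was 1678 CPM with and 2844 CPM without, a ratio of -0.76 (-0.89 to -0.64). After thinning, a member UMI was found in 54.3% (47.1 to 61.4) of the cells with granzymes in aPD1 and 56.8% (44.7 to 68.2) in Control, against 82.3% and 82.2% of the cells without them. All 7 members were lower with the granzymes in each library, although the interval reached 0 for Klra6 in both libraries and for Klra3 in Control.

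The activating members differed most in aPD1. Klra4 was at 319 CPM (284 to 357) with the granzymes and 1137 CPM without in aPD1, a ratio of -1.83 (-2.02 to -1.65). In Control it was at 448 CPM (387 to 515) with and 892 CPM without, a ratio of -0.99 (-1.23 to -0.76). Klra8 was at 270 CPM with and 779 CPM without in aPD1, a ratio of -1.53 (-1.74 to -1.32), and at 457 CPM with and 668 CPM without in Control, a ratio of -0.55 (-0.79 to -0.31). Klra7 differed less in aPD1, with 494 CPM in the cells with granzymes and 784 CPM in those without, a ratio of -0.67 (-0.84 to -0.50). In Control its ratio was -0.74 (-1.01 to -0.48). At least 2-fold lower levels were seen for 3 of 7 members in aPD1 (Klra4, Klra8 and Klra9), where 6.44% of all genes tested were that much lower and 3.21% that much higher, and for 0 of 7 in Control, where 8.18% were lower and 2.65% higher. The median over all genes was -0.11 in aPD1 and -0.12 in Control.

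The makeup of the family differed with the granzymes in aPD1. Activating members gave 39.7% of the family's UMIs in aPD1 cells with the granzymes and 54.5% in those without. In Control the shares were 53.9% with and 54.9% without. Klra7 alone gave 33.3% of the UMIs of cells with granzymes in aPD1 and 22.7% in Control. The libraries filled the NK-like clusters differently: the cluster led by Gzmd and Gzmc held 54.3% of the aPD1 cells with granzymes (107 of 197) and 33.8% of the Control cells (25 of 74). In that cluster activating members gave 29.7% (25.9 to 33.8) of the family's UMIs of cells with granzymes in aPD1 and 33.7% (26.8 to 41.2) in Control. In the other NK-like cluster they gave 45.8% (42.5 to 49.2) in aPD1 and 60.5% (56.2 to 64.6) in Control. Thus Control cells of the Gzmc-led cluster had a low activating share too, and the intervals of the libraries lay apart in the other cluster.

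Binning NK-like cells by granzyme UMIs showed the lowest levels where the granzymes were highest. Over bins of 0, 1, 2 to 5, 6 to 20 and more than 20 UMIs, the family's level in aPD1 was 3516, 3300, 2503, 2311 and 999.5 CPM. In Control it was 2844, 2240, 2085, 1946 and 1357 CPM, with 17 to 33 cells in the upper 3 bins. Klra4 was at 131 CPM in the top bin in aPD1 and 374 CPM in Control. Klra7 was at 393 CPM there in aPD1 and 454 CPM in Control.

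**Figure D3:**
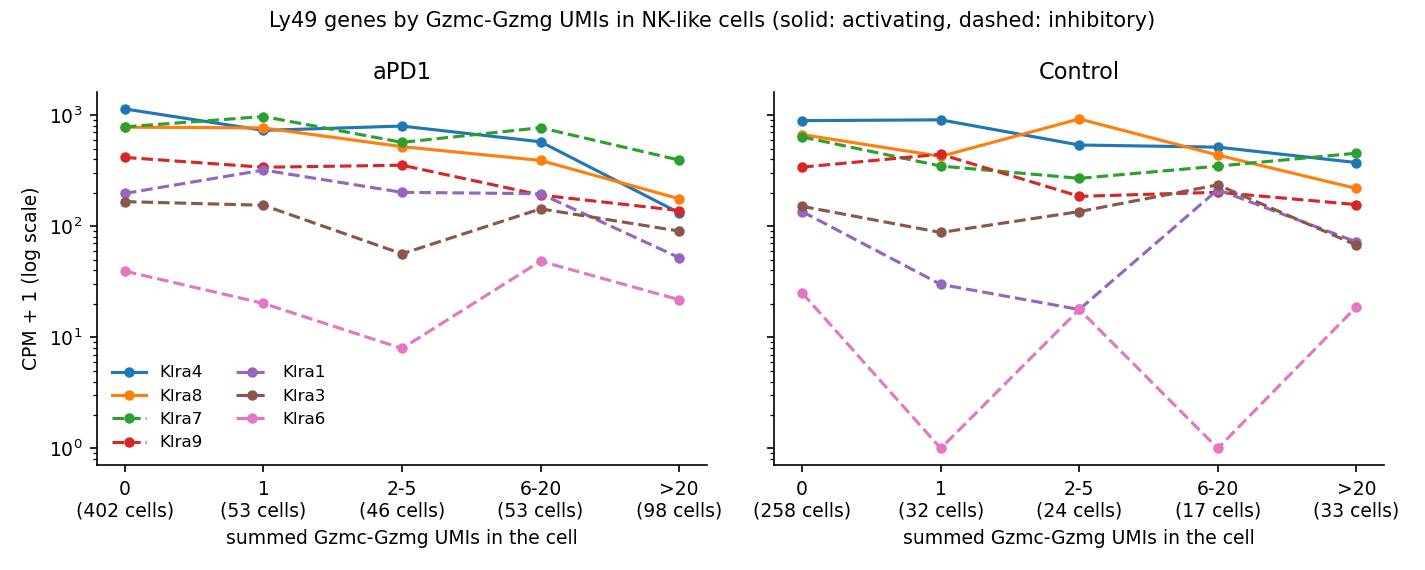
Level of each Ly49 gene (y axis, CPM + 1, log scale) in NK-like cells binned by summed Gzmc to Gzmg UMIs (x axis, with the number of cells), aPD1 left and Control right; solid lines are activating and dashed lines inhibitory members. In aPD1 Klra4 and Klra8 reach their lowest level in the top bin, where Klra7 is the highest member.

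The cells with these granzymes were deeper, with medians of 4289 UMIs in aPD1 and 5081.5 in Control. At matched depth the direction was the same: at 3000 to 5000 UMIs the family was at 2233 CPM with and 2694 CPM without in aPD1, and at 1802 CPM with and 3215 CPM without in Control. Over 5000 UMIs it was at 1058 CPM with and 1958 CPM without in aPD1, and at 1626 CPM with and 2981 CPM without in Control, with 16 and 17 cells without. Outside the cluster that Gzmc leads, the ratio of cells with granzymes to those without was -0.48 in aPD1 and -0.45 in Control, and there Klra7 had a ratio of 0.06 in aPD1.

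Comparing the libraries within the cells with granzymes, the activating members were lower in aPD1 and the inhibitory members, summed, were higher. Klra4 had 319 CPM in aPD1 and 448 CPM in Control, a log2 ratio of -0.49 (-0.75 to -0.22). Klra8 had 270 and 457 CPM, a ratio of -0.76 (-1.03 to -0.48). Klra7 was higher in aPD1, at 494 CPM against 381 CPM in Control, with a ratio of 0.38 (0.12 to 0.64). Summed, the activating members had a ratio of -0.62 (-0.81 to -0.43) and the inhibitory members 0.21 (0.03 to 0.40). No member passed 2-fold, against 6.16% of 5068 genes that were at least 2-fold higher and 1.78% that were at least 2-fold lower, with a median of 0.13 over all genes. Shares of thinned cells gave no separation: Klra4 was found in 18.8% of aPD1 cells and 25.7% of Control cells, Klra8 in 19.3% and 25.7%, and Klra7 in 28.9% and 25.7%, with overlapping intervals.

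Taking each NK-like cluster by itself changed this comparison. In cells with granzymes of the Gzmc-led cluster, Klra4 was at 112 CPM in aPD1 and 115 CPM in Control, a ratio of -0.03 (-0.76 to 0.76), and in those of the other cluster it was at 718 and 671 CPM, a ratio of 0.10 (-0.19 to 0.39). The activating sum had ratios of -0.43 (-0.86 to 0.03) and -0.06 (-0.27 to 0.16). For Klra4 the interval thus included 0 in each cluster, while both clusters together gave -0.49. Klra8 was lower in aPD1 in the Gzmc-led cluster, at -0.67 (-1.23 to -0.10), and at -0.25 (-0.57 to 0.07) in the other. Klra7 had a ratio of -0.01 (-0.44 to 0.43) in the Gzmc-led cluster and was higher in aPD1 in the other, at 0.97 (0.64 to 1.31). The family's ratio was -0.25 (-0.49 to 0.01) in the Gzmc-led cluster and 0.34 (0.19 to 0.50) in the other.

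T-cell transcripts moved with this comparison. A UMI of Cd3d, Cd3e or Cd3g, which encode the CD3 complex of T cells, was found in 34.5% of the aPD1 cells with granzymes (68 of 197) and 20.3% of the Control cells (15 of 74). Among cells without granzymes it was found in 15.9% in aPD1 and 8.14% in Control. NK markers, which mark these clusters, were present in 98.5% of the CD3-bearing granzyme cells in aPD1 and 93.3% in Control. The CD3 shares were counted without thinning. In monocyte/macrophage-like, dendritic-like and neutrophil-like clusters a CD3 UMI was found in 5.38% to 17.2% of cells, both libraries together. The shares of NK-like cells without granzymes lay in that range. Among cells with granzymes, CD3-bearing ones were deeper, at medians of 5265.5 against 3884 UMIs in aPD1 and 5864 against 5073 in Control. Stray CD3 transcripts, doublets of an NK and a T cell and T cells that carry NK genes cannot be told apart here. The part of depth was not tested.

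Leaving out CD3-bearing cells made the difference between libraries smaller for Klra4 and the activating sum and larger for Klra7. In the remaining cells with granzymes, 129 in aPD1 and 59 in Control, Klra4 was at 411 CPM in aPD1 and 397 CPM in Control, a ratio of 0.05 (-0.26 to 0.36). The family's ratio was 0.07 (-0.09 to 0.22). Klra8 remained lower in aPD1, at 277 CPM against 427 CPM in Control, with a ratio of -0.62 (-0.95 to -0.29). Klra7 remained higher, at 563 CPM against 345 CPM in Control, with a ratio of 0.71 (0.40 to 1.02). The lower family level with granzymes than without was seen in these cells too, at -1.24 in aPD1 and -0.90 (-1.04 to -0.76) in Control.

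**Figure D4:**
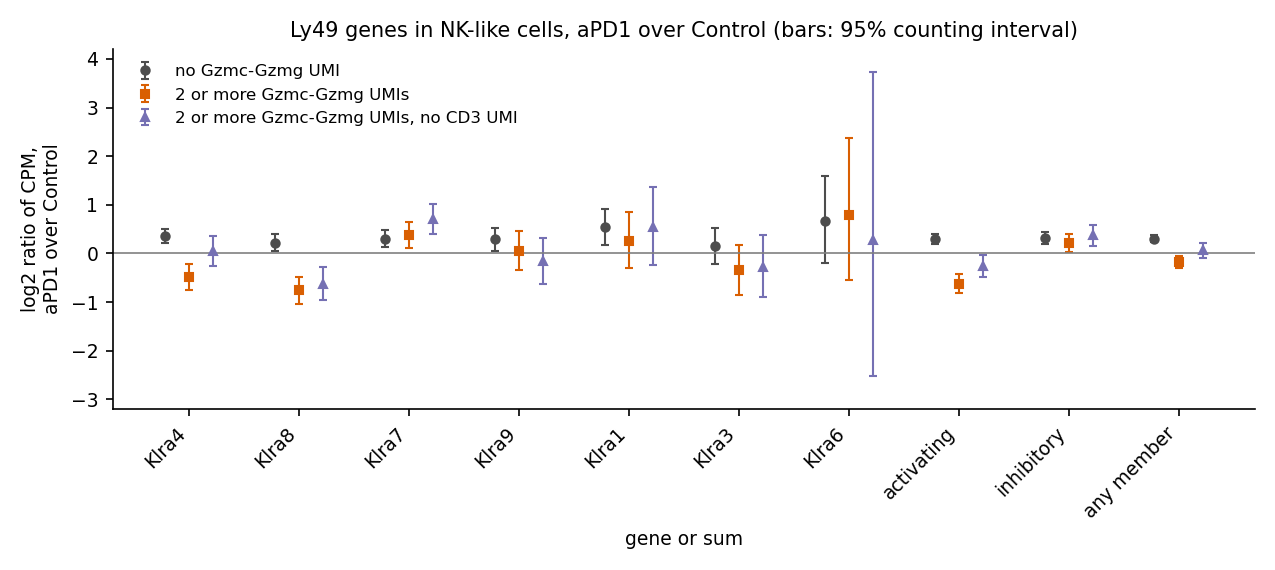
Log2 ratio of CPM, aPD1 over Control (y axis, bars are 95% counting intervals), for each Ly49 gene and for the sums, in NK-like cells without Gzmc to Gzmg (circles), with them (squares) and with them but without a CD3 UMI (triangles). The ratio of Klra4 is -0.49 in all cells with the granzymes and 0.05 without the CD3-bearing ones, while Klra8 stays below 0 and Klra7 above 0.

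Single NK-like cells often held more than 1 member. At least 2 members were found in 47.4% of thinned NK-like cells in aPD1 and 46.4% in Control. Of thinned cells with any member, 64.0% (309 of 483) held at least 2 members in aPD1 and 60.8% (169 of 278) in Control, with means of 2.01 and 1.85 members per positive cell. No member was found in 25.9% of aPD1 cells and 23.6% of Control cells, and no cell held all 7. Cells without Gzmc to Gzmg showed 59 of 128 possible combinations in aPD1 and 38 in Control. The most frequent combination of 2 or more members there was Klra4 with Klra8 in aPD1, in 6.47% of cells, and Klra4 with Klra7 in Control, in 9.30%. No single combination was dominant in either library.

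After thinning, 1 member of most pairs was found more often in cells with the other member than in cells without it. In 17 of 21 pairs in aPD1 and 13 of 21 in Control, the second member was found in a larger share of cells with the first than of cells without it. The intervals of these shares did not overlap for 5 pairs in aPD1 and for 0 in Control. Among pairs of the other NK receptor genes, the share was larger in 55.3% of 190 pairs in aPD1 and 55.0% of 171 in Control, and the intervals lay apart for 2.11% and 1.75%. Without thinning the counts for the members were 14 and 7 of 21 pairs in aPD1 and 17 and 3 of 21 in Control. The order of the libraries thus turned. Without thinning the share was larger in 78.1% of other NK receptor pairs in aPD1, against 66.7% of member pairs. In Control it was larger in 72.9% of other pairs and 81.0% of member pairs. The intervals of the other NK receptor pairs then lay apart for 19.5% in aPD1 and 5.24% in Control. Klra8, for example, was found in 46.8% (40.1 to 53.6) of Klra4-positive and 23.3% (19.3 to 27.5) of Klra4-negative aPD1 cells, and in 36.6% (28.4 to 45.3) and 26.1% (20.5 to 32.3) of Control cells. The odds ratio of this activating pair was 2.91 in aPD1 and 1.63 in Control. In cells without the granzymes alone it was 2.35 in aPD1 and 1.28 in Control, and the difference from the value in all NK-like cells was not tested.

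Pairs of inhibitory members varied. Klra1 and Klra6 had the highest odds ratio of the 21 pairs in each library, at 4.05 in aPD1 and 4.24 in Control, from 5 and 1 cells with both. Klra1 and Klra7 had an odds ratio of 2.36 in aPD1 and 1.43 in Control. The activating Klra8 and the inhibitory Klra9 had 2.06 and 1.77. Klra7 and Klra9 had odds ratios below 1, at 0.91 in aPD1 and 0.67 in Control. Klra3 and Klra6, at 73 and 15 positive cells in aPD1 and 42 and 5 in Control, were found in 0 cells together, of 652 and 364. With so few Klra6-positive cells this does not tell whether the genes exclude each other. Without thinning some aPD1 cells held both, at an odds ratio of 0.25. At this depth a missed transcript cannot be told from a silent gene, so the number of members per cell is a lower limit.

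**Figure D5:**
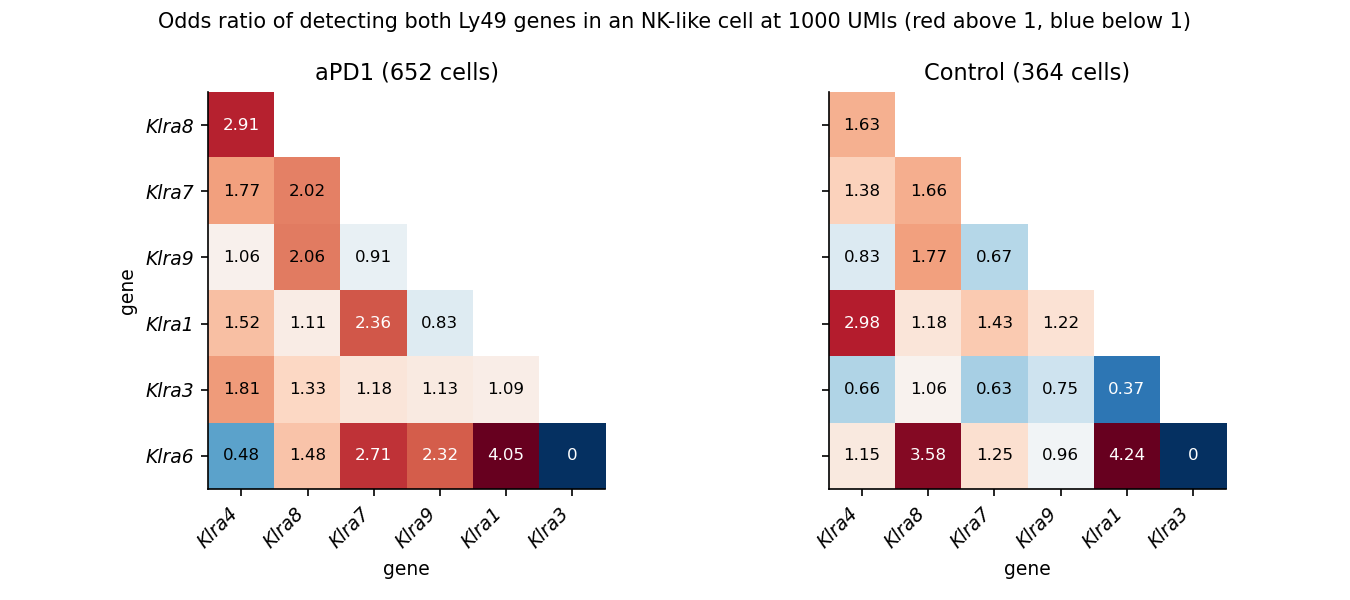
Odds ratio of detecting both genes of each pair of Ly49 members in a thinned NK-like cell, aPD1 left (652 cells) and Control right (364 cells), red above 1 and blue below 1. Klra4 with Klra8 stands at 2.91 in aPD1 and 1.63 in Control, and Klra7 with Klra9 is below 1 in both.

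NK-like cells with at least 3 member UMIs were set against those with 0. They numbered 463 and 117 in aPD1, with medians of 2261 and 3245 UMIs, and 273 and 47 in Control, with medians of 2986 and 3403 UMIs. In aPD1, Ly49-positive cells had more of several genes of mature NK cells. Ly49-negative cells had more of several genes linked to tissue-resident innate lymphocytes in aPD1, and of fewer of them in Control. Of the NK maturation list, 6 of 12 measured genes were at least 2-fold higher in Ly49-positive aPD1 cells and 2 of 11 in Control, against 5.46% and 4.09% of all genes tested. The list's median was 0.77 in aPD1 and 0.60 in Control, with medians of -0.02 and 0.01 over all genes. Eomes, a transcription factor of NK cells, was at 148 CPM in Ly49-positive and 43 CPM in Ly49-negative aPD1 cells, and at 117 and 77.3 CPM in Control. Its log2 ratio in Control was 0.60 (-0.21 to 1.52). In cells without Gzmc to Gzmg it was 1.54 (0.52 to 2.79) in aPD1 and -0.71 (-1.72 to 0.47) in Control. The granule protease gene Gzma was higher in Ly49-positive cells in aPD1, at 11630 and 4858 CPM, and lower in Control, at 6616 CPM in Ly49-positive and 7447 CPM in Ly49-negative cells, a log2 ratio of -0.17 (-0.26 to -0.08). Tbx21, which encodes the transcription factor T-bet, had ratios of -0.57 in aPD1 and -0.49 in Control, where the interval included 0. Within cells without Gzmc to Gzmg the list's median was 0.50 in aPD1 and -0.20 in Control, with -0.01 and -0.39 over all genes.

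Of the list of type 1 innate lymphocyte and residency genes, 7 of 10 were at least 2-fold lower in Ly49-positive aPD1 cells and 2 of 6 in Control, against 3.4% and 4.43% of all genes, with list medians of -1.78 and -0.80. Cxcr6, a chemokine receptor of resident lymphocytes, was at 22 CPM in Ly49-positive and 141 CPM in Ly49-negative aPD1 cells. Tmem176b, a membrane protein gene of innate lymphoid cells, was at 11 and 119 CPM in aPD1 and at 4 and 110 CPM in Control. In Control it was also higher with Gzmc to Gzmg than without, at 1.79 (0.50 to 3.21). Within cells without these granzymes, the measured genes in Control were Ltb, at -0.70 (-1.48 to 0.18), and Cd69, at 0.11 (-1.18 to 1.78). In aPD1 they were Cxcr6 at -2.42, Cd69 at -1.37, Ltb at -1.22 and Il21r at 0.39 (-1.36 to 2.77). A CD3 UMI was found in 20.1% of Ly49-positive and 29.1% of Ly49-negative cells in aPD1, and in 9.52% and 10.6% in Control.

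Among all genes that went one way in both libraries, Ly6c2, which encodes a surface protein of activated and memory lymphocytes and is also on the NK maturation list, ranked first among the genes lower in Ly49-positive cells. It was at 565 CPM in Ly49-positive and 1701 CPM in Ly49-negative aPD1 cells, and at 240 and 2326 CPM in Control. Its direction in Control turned with the granzymes: in cells without Gzmc to Gzmg it was at 371 CPM in Ly49-positive and 757 CPM in Ly49-negative aPD1 cells, and at 340 and 66.2 CPM in Control, a log2 ratio of 2.36 (0.79 to 4.65) from 3 UMIs in 22 Ly49-negative cells. Gzmc was at 3377 CPM in Ly49-positive and 7869 CPM in Ly49-negative aPD1 cells. Klrc1, which encodes NKG2A, an inhibitory class I receptor outside the Ly49 family, was at 237 CPM in Ly49-positive and 541 CPM in Ly49-negative aPD1 cells and at 178 and 575 CPM in Control. Bcl2a1b, S100a4, Klrb1b, Capg, Ltb, Ly6a, Ifitm2, AA467197 and Pglyrp1 completed the 12 lower genes. The 12 higher genes were Sult2b1, Pmepa1, St3gal6, Fryl, Sytl2, Socs3, Fyn, Foxp1, Khdc1a, Rnf157, Klri2 and Ccl3. Fyn encodes a Src-family kinase that acts below lymphocyte receptors and was at 73.0 CPM in Ly49-positive and 26.1 CPM in Ly49-negative aPD1 cells. Ccl3, a chemokine of activated NK cells, was at 158 CPM in Ly49-positive and 34.8 CPM in Ly49-negative aPD1 cells.

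The same lists separated NK-like cells with and without Gzmc to Gzmg. In aPD1, 7 of 13 maturation genes were at least 2-fold lower with the granzymes and 5 of 10 residency genes at least 2-fold higher, against 6.44% and 3.21% of all genes. In Control the counts were 5 of 11 and 3 of 6, against 8.18% and 2.65%. Ly6c2, of the maturation list, went the other way, at 1204 CPM with and 444 CPM without in aPD1 and 974 and 347 CPM in Control. List medians were -1.04 and 1.01 in aPD1 and -0.94 and 1.25 in Control. Cd27, a costimulatory receptor, was at 79 CPM with and 163 CPM without in aPD1 and at 92 and 198 CPM in Control. Itga1, an integrin of resident cells, was at 28 CPM with and 4 CPM without in aPD1.

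The signalling partners of the receptors did not all go one way with the granzymes. Tyrobp, the adapter of Klra4 and Klra8, was at 3463 CPM with the granzymes and 3314 CPM without in aPD1, and at 3400 and 2983 CPM in Control. Of the adapter and kinase list, 2 of 13 genes were at least 2-fold lower with the granzymes in aPD1 and 2 of 12 in Control, against the same 6.44% and 8.18%. Syk, a kinase recruited by Tyrobp, was lower in both libraries, at 4 CPM with and 26 CPM without in aPD1 and 5 and 30 CPM in Control. Of genes known to regulate Ly49 expression, 0 of 10 passed 2-fold in aPD1 and 1 of 9 in Control, where Tcf7 was at 23 CPM with and 51 CPM without.

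Between libraries, in all NK-like cells together, 0 of 13 adapters and kinases and 0 of 6 class I ligand genes passed 2-fold in aPD1 over Control, against 3.22% of 7448 genes higher and 1.6% lower. All 6 class I ligand genes were above 0, with a median of 0.31 against 0.08 over all genes. In the cells without granzymes, H2-K1, a ligand gene of Ly49C, was at 2824 CPM in aPD1 and 2057 CPM in Control. H2-D1 was at 4188 CPM in aPD1 and 3244 CPM in Control. Tap2, a subunit of the transporter that loads class I, was at 119 CPM in aPD1 and 58 CPM in Control. These are levels in the NK-like cells themselves. Of 18 measured NK receptors outside the family, 1 was at least 2-fold higher in aPD1: Klrg1, an inhibitory cadherin receptor, at 113 CPM in aPD1 and 55.5 CPM in Control NK-like cells.

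T cells carried few Ly49 transcripts outside 1 cluster. CD8 T cells of the T-cell-like clusters held a member UMI in 2.28% (1.45 to 3.40) of 1010 thinned aPD1 cells and 4.35% (0.53 to 14.8) of 46 Control cells. Those shares overlapped the background in monocyte/macrophage-like cells, although the unthinned levels were 23.4 CPM in aPD1 and 83.8 CPM (48.8 to 134) in Control, where 17 UMIs came from 6 cells. Double-negative cells of these clusters, which hold CD3 but no UMI of Cd4, Cd8a, Cd8b1 or Foxp3, were at 156 CPM in 192 aPD1 cells and held 0 member UMIs in 61 Control cells, where 3 UMIs are the limit. Of these cells, 104 in aPD1 and 48 in Control lay in the regulatory T cell cluster. Another 44 and 7 lay in the CD4 T cell cluster. A missed Cd4 or Foxp3 transcript cannot be told from a silent gene here. In aPD1, 33 of the 66 member UMIs of this class came from 4 cells of a CD8 T cell cluster.

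The exception was a cluster whose leading genes were Klra1, Tcf7, Klra6, Cd7, S1pr1 and Il7r, in that order. It is called here after Tcf7 and Il7r, which encodes the interleukin-7 receptor, since Klra genes were not used to form it; as Klra1 and Klra6 lead it, their levels there are a description. It had 189 aPD1 and 104 Control cells, and 93.9% of them held a CD3 UMI. It met no fixed cell type name and was left unnamed, and its cells were added to the double-negative and CD8 classes after the data were seen. The T-cell receptor constant genes sought (Trac, Trbc1, Trbc2, Trdc, Tcrg-C1, Tcrg-C2 and Tcrg-C4) were absent from the gene list of the matrices. Thus αβ and γδ T cells cannot be told apart by them. Double-negative cells made up 108 of these cells in aPD1 and 68 in Control, and CD8 cells 63 and 26.

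Double-negative cells of the cluster held inhibitory members and no activating member. Klra7 was at 446 CPM (364 to 540) in aPD1 and 516 CPM (417 to 631) in Control. Klra1 was at 377 CPM (303 to 465) in aPD1 and 357 CPM (275 to 455) in Control. Both libraries thus placed Klra7 and Klra1 above the other members, with Klra6 at 103 and 98.8 CPM. Klra9 was at 98.6 CPM in aPD1 and 54.9 CPM in Control, and Klra3 at 47.2 and 16.5 CPM. Klra4 and Klra8 had 0 UMIs in both libraries, where 3 UMIs would give 12.9 CPM in aPD1 and 16.5 CPM in Control. The upper limit on the share of cells with a UMI of either gene was 2.78% from 108 aPD1 cells and 4.41% from 68 Control cells, by the same 3 counts.

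The order of the members differed from that in NK-like cells without granzymes. Double-negative cells had more Klra1, at a log2 ratio over those NK-like cells of 0.94 (0.56 to 1.31) in aPD1 and 1.41 (0.93 to 1.88) in Control. Klra6 was higher too, at 1.42 (0.61 to 2.20) in aPD1 and 2.04 in Control, where the interval also lay above 0. Klra7 was at -0.81 (-1.13 to -0.52) in aPD1 and -0.30 (-0.64 to 0.02) in Control. Klra9 was lower, at -2.08 and -2.63. Klra4 had a ratio of at most -6.47 in aPD1 and -5.76 in Control, computed with 3 UMIs over the double-negative class. For Klra8 the ratio was at most -5.92 and -5.34. Past 2-fold were 1 of 7 members higher and 4 lower in aPD1, against 4.67% and 8.91% of all genes, and 2 higher and 4 lower in Control, against 3.92% and 8.58%.

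Free RNA, read from barcodes with 10 to 50 UMIs, held both kinds of member at a like level. In aPD1 it gave 107 CPM of Klra4 (35 UMIs) and 132 CPM of Klra7 (43 UMIs), and in Control 155 and 124 CPM, from 5 and 4 UMIs, with 0 UMIs of Klra6 and Klra9. Free RNA made up an estimated 1.93% of the UMIs of aPD1 lymphocytes and 1.49% of Control lymphocytes. In double-negative cells of the cluster the same genes were at 0 UMIs of Klra4 in both libraries and at 446 CPM of Klra7 in aPD1 and 516 CPM in Control.

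Klra5, the Ly49E gene that was outside the chosen members, was at 55.7 CPM in double-negative cells of the cluster in aPD1 and 65.9 CPM in Control, against 24.6 and 9.91 CPM in NK-like cells without granzymes. NK-like cells with granzymes had a like level, at 53.2 CPM in aPD1 and 46.2 CPM in Control. In aPD1, 44 of those 51 UMIs came from the 68 CD3-bearing cells, which were at 113 CPM. In Control, only 2 of 20 UMIs came from the 15 CD3-bearing cells, which were at 22.6 CPM. A member UMI was found in 45.4% of thinned double-negative cells in aPD1 and 35.3% in Control, and in 51.9% and 55.9% unthinned. Of the positive thinned cells, 18 of 49 held at least 2 members in aPD1 and 7 of 24 in Control. Klra1 with Klra7 was the most frequent combination of 2 members, in 8.33% of aPD1 cells and 5.88% of Control cells. The family's level did not differ between libraries beyond counting error, at 1072 CPM in aPD1 and 1043 CPM in Control, with a log2 ratio of 0.04 (-0.24 to 0.32). No member with at least 20 UMIs over both libraries passed 2-fold between them. Of 2261 genes, 4.78% were that much higher and 2.12% that much lower. Klra3 fell under that minimum, with 11 UMIs in aPD1 and 3 in Control (47.2 and 16.5 CPM).

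CD8 cells of the same cluster had a similar order of members at a lower level. The family was at 594 CPM (484 to 721) in aPD1 and 343 CPM (224 to 503) in Control, with a UMI in 27.0% and 19.2% of thinned cells. Klra7 was at 268 CPM in aPD1 and 119 CPM in Control, Klra1 at 105 and 92.3 CPM, and Klra6 at 93.2 and 79.1 CPM. Klra8 had 0 UMIs in both libraries, and Klra4 had 4 UMIs in 1 aPD1 cell. Relative to these CD8 cells, double-negative cells had log2 ratios of 1.85 (1.10 to 2.67) for Klra1 in aPD1 and 1.95 (0.83 to 3.32) in Control, and of 0.73 (0.22 to 1.27) and 2.12 (1.13 to 3.29) for Klra7. For Klra6 the intervals included 0 in both libraries.

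Other genes of these double-negative cells also set them apart from NK-like cells. Of the NK receptor list, 11 of 18 genes were at least 2-fold lower than in NK-like cells without granzymes in aPD1 and 8 of 18 in Control, with sums under 3 UMIs set to 3, against 8.91% and 8.58% of all genes tested. Ncr1, the activating NKp46 receptor, was at 34.3 CPM against 427 CPM in those NK-like cells in aPD1, and at 54.9 against 310 CPM in Control. Tyrobp was at 317 CPM against 3314 CPM in aPD1 and 466 against 2983 CPM in Control. Tcf7 was at 167 CPM against 59.8 CPM in aPD1 and 121 against 51.0 CPM in Control, and it is also 1 of the genes that lead the cluster. Ikzf2, encoding the transcription factor Helios, was at 836 CPM against 80.1 CPM in aPD1 and 527 against 62.3 CPM in Control. Il22, a cytokine of innate-like T cells, was at 304 CPM in aPD1 from 3 cells, with 0 UMIs in Control.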

How the data were processed

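Cell Ranger 2.1 and mm10 are named for the authors' pipeline, per the submitters' processing notes. The deposited values are UMI counts per gene and barcode, not normalized, for 27998 genes and 737280 barcodes per library, empty barcodes included. Cells were barcodes with at least 1000 UMIs and at most 10% mitochondrial UMIs. No doublet caller was run; an alternative left out cells with 3 or more macrophage UMIs. Both libraries were clustered together (scanpy 1.11.5, leidenalg 0.10.2, Python 3.11.15; 2000 variable genes, 30 components, 15 neighbours, resolution 1) without Klra genes, Gzmc to Gzmg, and mitochondrial, ribosomal, cell-cycle and sex-linked genes. Clusters were named from fixed markers. Double-negative and CD8 classes were planned within T-cell-like clusters; the unnamed Tcf7 and Il7r-led cluster was added after seeing the data.

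Counts were summed per class and library; levels have exact Poisson, shares exact binomial (Clopper-Pearson) and ratios conditional binomial intervals, and against 0 UMIs a ratio was computed with 3 UMIs as a bound. Genes tested in a comparison had at least 20 UMIs over both sides, and in counts of genes past 2-fold sums under 3 UMIs were set to 3. No p-value is given with 1 library per group. PCR duplicates are removed by UMIs, but cells and animals vary beyond these intervals. The ratio and thinning code was tested on simulated data. List genes were named when past 2-fold, up to 4 a list. The ranked genes were the 12 highest and 12 lowest by the smaller of both libraries' ratios, with at least 50 UMIs and 50 CPM. The members and lists were chosen with earlier results of these data known. Alternatives covered the UMI and mitochondrial limits, class definition, resolution, depth, detection, free RNA and doublets. Leaving out CD3-bearing NK-like cells and taking the NK-like clusters separately were chosen after seeing the data.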

Additional observations from a re-analysis of the deposited data

Results flagged for a closer look

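The aPD1 over Control ratio went opposite ways in NK-like cells with and without Gzmc to Gzmg for Klra4, Klra8, the activating sum and the whole family, and this difference between cell groups was not tested. Klra4 had a log2 ratio of -0.49 in cells with the granzymes and 0.35 in cells without. Klra8 had -0.76 in cells with and 0.22 in cells without. The activating sum had -0.62 in cells with and 0.30 in cells without, and the family had -0.18 in cells with and 0.31 in cells without. CD3-bearing cells made up 34.5% of the aPD1 cells with granzymes and 20.3% of the Control ones. The libraries also filled the NK-like clusters differently: 54.3% of the aPD1 and 33.8% of the Control cells with granzymes lay in the cluster led by Gzmd and Gzmc. Within cells with granzymes of that cluster the ratio was -0.03 for Klra4, -0.67 for Klra8, -0.43 for the activating sum and -0.25 for the family, and in the other NK-like cluster 0.10, -0.25, -0.06 and 0.34. For Klra4 the interval included 0 in each cluster. Leaving out CD3-bearing cells, the ratio in cells with granzymes was 0.05 for Klra4, -0.62 for Klra8, -0.26 for the activating sum and 0.07 for the family.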

How the results depend on the processing

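No paired analysis was possible because each group has 1 library. Of 185 recomputed main results, 131 kept their direction and moved by less than their counting interval, 51 moved further and 3 reversed; of 3691 recomputed values of single genes and classes, the numbers were 3264, 413 and 14. A double-negative class from T-cell-like clusters without a CD8, CD4 or regulatory name was not run, since no such cluster remained. The cause of the shifts was not tested, except where fewer cells enter by construction. Depth limits the shares: unthinned, a member was found in 68.0% of aPD1 and 71.6% of Control NK-like cells with Gzmc to Gzmg (at 2 UMIs or more 61.4% and 68.9%) and in 87.6% and 91.5% of those without, and 2 or more members in 77.4% and 78.9% of positive cells. Values below are aPD1 first, Control after, where 2 are given.

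With classes defined by transcripts alone, the family's CPM was 1620 and 1479 in NK-like cells with granzymes, 3658 and 2707 in those without, and 685 and 828 in double-negative cells; it was 98.3 in aPD1 CD8 T cells. The aPD1 over Control ratio was then 0.13 for the family with granzymes (reversed), 0.43 without, -0.18 for the activating sum and 0.19 for Klra4 with granzymes (reversed). From thinned counts, the family's CPM was 1782 and 1824 with granzymes, 3803 without in aPD1, 62.4 and 222 in CD8 T cells, and 388 in Control double-negative cells. The aPD1 over Control ratios were then -0.034 with granzymes and 0.48 without, and in double-negative cells 0.40 for the family, 0.31 for Klra7 and 0.34 for the inhibitory sum (both reversed). The ratio of cells with to without granzymes was then -1.09 and -0.58.

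Leaving out CD3-bearing NK-like cells gave aPD1 over Control ratios of 0.065 for the family (reversed), 0.047 for Klra4 (reversed) and -0.26 for the activating sum with granzymes, 0.40 for the family without, and a Control ratio of cells with to without of -0.90; Klra5 with over without in aPD1 became -0.82. Without the Gzmc-led cluster the ratio of cells with to without was -0.48 and -0.45 for the family, and in aPD1 0.13 for Klra1, 0.062 for Klra7 and -0.54 for Klra5 (all reversed), with a Klra7 share 1.96 percentage points higher; the aPD1 over Control ratio with granzymes was then 0.34 for the family and 0.096 for Klra4 (both reversed) and -0.058 for the activating sum. With transcripts alone Klra5 gave -0.77. A granzyme minimum of 1 UMI gave -1.02 and of 5 UMIs -1.43 in aPD1.

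Double-negative cells of named T-cell-like clusters only were at 156 and 0 CPM, those with at least 3000 UMIs at 372 and 711 CPM, and with a 1500 UMI minimum at 561 CPM in aPD1. CD8 T cells of named clusters only were at 23.4 and 83.8 CPM, and aPD1 CD8 T cells after subtracting free RNA at 40.0 CPM. In CD8 T cells of T-cell-like clusters the Klra7 ratio reversed to 1.01 with 1500 UMIs and to 0.74 with 5% mitochondrial UMIs. In all CD8 T cells, those of the Tcf7 and Il7r-led cluster included, the Klra1 share difference reversed to 0.80 points with 1500 UMIs. Genes at least 2-fold higher in Ly49-positive cells numbered 138 and 82 at 2000 to 5000 UMIs and 138 and 48 in cells without granzymes, where 415 were lower in Control. Of the other NK receptors, 0 passed 2-fold between libraries with transcripts alone and 3 with thinned counts.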

Other observations

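Klra2 (Ly49B), a Ly49 gene known from myeloid cells, was outside the chosen members and was found where they were not. Monocyte/macrophage-like cells had 216 CPM (191 to 243) of Klra2 in aPD1 and 167 CPM (147 to 190) in Control, with a UMI in 18.4% and 15.6% of thinned cells. An unnamed cluster led by Chil3 and Adgre4 held 49.2% of the Klra2 UMIs of aPD1 cells and 16.7% of those of Control cells, at 182 and 232 CPM. NK-like cells had 1.95 CPM in aPD1 and 0.80 CPM in Control. Neutrophil-like cells had 136 CPM in 244 aPD1 cells, and the 16 Control cells had 0 UMIs. Klra17 (Ly49Q) and Klra10 (Ly49J) had at most 1 UMI in NK-like cells with or without Gzmc to Gzmg in either library.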
